A study of Mus musculus with 26 samples.

Results

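The giant mRNAs described here are 10 messages with very long coding sequences: Macf1, Dst, Plec, Utrn, Ahnak, Ubr4, Huwe1, Birc6, Herc1 and Dync1h1. They were taken by symbol, with the transcript of the highest summed count kept for each gene. All 10 are among the 9378 genes of one deposited table of mouse brown fat counts, and 4 of them (Macf1, Ahnak, Ubr4 and Dync1h1) are among the 1189 genes of the other. Macf1 carries no symbol in the tables and was named by its RefSeq accession. The set was chosen by the counts in the IgG and IMP2 immunoprecipitates, because Macf1, Ahnak and Ubr4 were higher with IgG, and that comparison is given as a description with no test.

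The proteins made from these mRNAs are among the largest in the cell. Spectraplakins and plakins tie actin filaments, microtubules and intermediate filaments to each other and to the membrane, giant ubiquitin ligases mark proteins for the proteasome, and the dynein heavy chain is the motor that walks along microtubules. In fat as in other tissues these proteins are made in most cell types, and their mRNAs are far longer than the usual message.

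RNA immunoprecipitation with an antibody to IMP2 was compared with total RNA. Igf2bp2 encodes IMP2, which binds mRNAs in the cytoplasm and takes part in their turnover and translation. Mice were wild type (WT) or IMP2 -/- (knockout, KO) littermates from crosses of heterozygotes on a C57Bl/6J background, males aged 10 weeks, fed normal chow and kept at 4 °C overnight before brown fat was taken. The IgG table holds WT total RNA (libraries 15 and 20), 1 WT immunoprecipitate with the IMP2 antibody (25) and 1 with IgG (26), for which the labels give no target. The knockout table holds 2 libraries each of WT total RNA (16, 17), KO total RNA (18, 19), WT IMP2 immunoprecipitate (21, 22) and KO IMP2 immunoprecipitate (23, 24). The 14 liver samples of the series were not analysed here. Nothing in the labels ties the libraries of a group to different animals, and the p-values therefore cover only the spread between these samples, which may be technical.

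Summed counts over the kept transcript of each named gene ran from 1321756 to 3750103 in the IgG table, with the IgG library the deepest. In the knockout table they ran from 780333 to 4916160. Levels are given as CPM, the count scaled with TMM factors to a common total over the kept transcripts of a table. They are therefore not comparable between the tables. All 12 brown adipocyte markers, Ucp1 among them, were listed in the IgG table, with a summed level of 22400 to 28200 CPM per library. Igf2bp2 has no row in the knockout table, which leaves the KO label without a check on its mRNA. The IgG table lists it at 20 and 16 counts in total RNA, 8 with IMP2 and 16 with IgG. These are raw counts from libraries of unequal depth, the IgG library being the deepest, so they do not compare its level between libraries.

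The members lie on 9 chromosomes of the GRCm38 assembly, with Macf1 (chromosome 4, 123349633 to 123687802) and Ubr4 (chromosome 4, 139380659 to 139489533) on the same one. Dst spans chromosome 1, 33907888 to 34308662, Herc1 chromosome 9, 66350412 to 66508775, and Utrn chromosome 10, 12382187 to 12869888. Dync1h1 spans chromosome 12, 110601395 to 110666944, Plec chromosome 15, 76170974 to 76231378, and Birc6 chromosome 17, 74528254 to 74703356. Ahnak spans chromosome 19, 8989284 to 9076935, and Huwe1 chromosome X, 151800785 to 151935417. Counts are given per RefSeq transcript of these genes, and none of the members shared all its counts with a different gene.

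In the IgG table every member stood higher with IgG than with IMP2, while the IMP2 immunoprecipitate stood near total RNA or somewhat below it. The log2 ratio of IgG over IMP2 ran from 0.46 (Herc1) to 1.96 (Macf1), with a median of 1.30 against 0.01 over the 8966 genes that passed the filter on low counts, as did all 10 members. At least a 2-fold ratio was found for 8 of the 10, against 11.4% of all genes, and none was 2-fold lower, against 5.57%. Because this contrast was used to choose the members, nothing is read from that count. The ratios compare 1 library with 1 library, so their 95% intervals cover counting error only. The intervals treat each count as a separate molecule. Copies of one molecule made by PCR cannot be told apart, so the intervals may be too narrow. A fit of the whole table with edgeR, whose spread comes from the 2 total RNA libraries alone, called 0.234% of genes between the immunoprecipitates, 2.0% between IgG and total RNA and 0.903% between IMP2 and total RNA. It is given as background, and no call on a member is drawn from it.

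Among the cytoskeletal linkers, Macf1, a spectraplakin that joins actin to microtubules, had 141 and 145 CPM in total RNA, 139 CPM with IMP2 and 542 CPM with IgG. The IgG library stood apart from the other 3, which lay within a few CPM of each other. The ratio of IgG to IMP2 was 3.90-fold (3.34 to 4.57). Dst, which encodes the related spectraplakin dystonin, had 38.7 and 48.1 CPM in total RNA, 35.4 CPM with IMP2 and 137 CPM with IgG, a ratio of 3.87-fold (2.85 to 5.37). Plec encodes plectin, a linker of intermediate filaments, and had 21.1 and 26.2 CPM in total RNA, 21.2 CPM with IMP2 and 74.7 CPM with IgG. Its ratio was 3.52-fold (2.37 to 5.43), and its 15 listed transcripts had identical counts, so these forms cannot be told apart. The intervals of these 3 ratios overlap widely, so their order is not resolved.

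Utrn, which encodes utrophin, a relative of dystrophin that joins actin to the dystroglycan complex, had 27.4 and 25.8 CPM in total RNA, 16.5 CPM with IMP2 and 47.6 CPM with IgG. Its ratio of IgG to IMP2 was 2.89-fold (1.84 to 4.77), from only 21 counts in the IMP2 library. The IMP2 library lay below both total RNA libraries, but its ratio to them pooled, 0.626-fold (0.372 to 1.01), includes 1. Ahnak, a scaffold under the plasma membrane that binds S100a10 and Anxa2, had 466 and 356 CPM in total RNA, 343 CPM with IMP2 and 781 CPM with IgG. Its ratio was 2.27-fold (2.06 to 2.52).

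The transcripts of one gene did not all share the ratio. A second listed transcript of Ahnak had 84.4 and 58.7 CPM in total RNA, 64.4 CPM with IMP2 and 52.5 CPM with IgG. Its ratio of IgG to IMP2 was 0.815-fold (0.629 to 1.06), while that of the main transcript was 2.27-fold, and their intervals do not overlap. Ahnak is known to give a short splice form besides the giant one. Transcript lengths were not used here, and how reads shared by the transcripts were counted is not given in the sources used here. For Macf1 and Dst the second transcript followed the first, at 3.72-fold and 3.54-fold.

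The 4 ubiquitin ligases had a median log2 ratio of IgG over IMP2 of 1.17 against 1.82 for the 5 linkers and scaffolds. Huwe1 and Birc6 lay above Ahnak, but their intervals overlap that of Ahnak, so this order is not resolved. The difference between these classes of members was not tested. Huwe1, a ligase of the HECT class, had 111 and 118 CPM in total RNA, 91.9 CPM with IMP2 and 236 CPM with IgG, a ratio of 2.57-fold (2.12 to 3.14). Ubr4, which recognises destabilising N-terminal residues, had 212 and 199 CPM in total RNA, 195 CPM with IMP2 and 420 CPM with IgG, a ratio of 2.15-fold (1.88 to 2.47). For both, the IgG library lay far above the other 3. Those stood close together for Ubr4. For Huwe1 the IMP2 library lay below both total RNA libraries, at 0.794-fold of them pooled (0.643 to 0.974, counting error only).

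Birc6, an inhibitor of apoptosis that also carries ubiquitin-conjugating activity, had 20.4 and 42.8 CPM in total RNA, 18.1 CPM with IMP2 and 42.5 CPM with IgG. Its total RNA libraries differed 2.1-fold from each other, while 9.39% of genes were at least 2-fold higher in library 20, and its IgG level lay at that of the higher one. The ratio of IgG to IMP2 was 2.35-fold (1.52 to 3.81), an interval of counting error between 1 library and 1 library. Herc1, a HECT ligase that also carries RCC1-like domains, had 30.2 and 37.1 CPM in total RNA, 36.1 CPM with IMP2 and 49.6 CPM with IgG. Its ratio of IgG to IMP2 was 1.37-fold (0.992 to 1.93), so counting error alone spans a ratio of 1.

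Dync1h1, the heavy chain of cytoplasmic dynein, had 680 and 559 CPM in total RNA, 494 CPM with IMP2 and 694 CPM with IgG. Its ratio of IgG to IMP2 was 1.40-fold (1.29 to 1.53), below the intervals of Macf1, Dst, Plec, Utrn, Huwe1, Ahnak and Ubr4. Its IgG level was close to that of total RNA library 15. Dync1h1 and Herc1 had the smallest ratios of IgG to IMP2 among the members.

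**Figure D1:**
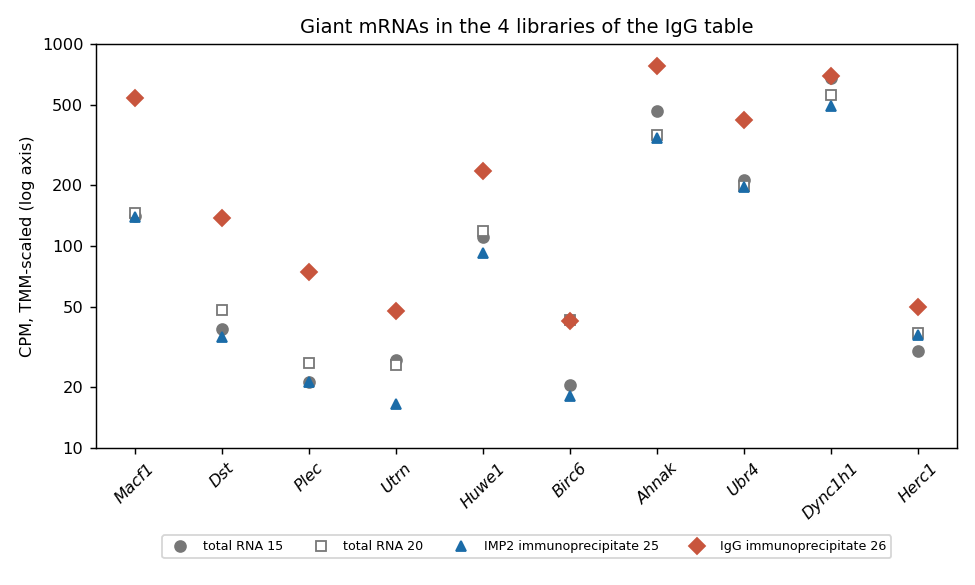
TMM-scaled CPM (log axis) of the 10 giant mRNAs in the 4 libraries of the IgG table, 1 symbol per library, ordered by the ratio of IgG to IMP2. For Macf1 the IgG library is at 542 CPM and the other 3 lie between 139 and 145 CPM, while for Birc6 the IgG library and total RNA 20 coincide near 42.5 CPM.

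Setting each immunoprecipitate against the mean of the 2 total RNA libraries shows which of them departs from the tissue. Library 25 or 26 enters both this and the ratio that chose the members, so these values too are a description. The log2 ratio of IgG over total RNA had a median of 0.98 over the members, against -0.01 over all genes, and all 10 were above 0, although Birc6 was at -0.01 without library 15. It was at least 1 for 5 of the 10 (7.37% of all genes): Macf1 (1.92), Dst (1.66), Plec (1.66), Huwe1 (1.04) and Ubr4 (1.03). It was 0.93 for Ahnak, 0.84 for Utrn, 0.56 for Herc1, 0.43 for Birc6 and 0.16 for Dync1h1, and none was 2-fold lower (9.84% of all genes). Macf1 ranked 40th from the top of the 8966 genes in this ratio. With library size alone as the scale, under which the median gene shifted by log2 0.17, 7 of the 10 reached 1 (11.5% of all genes).

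The log2 ratio of IMP2 over total RNA had a median of -0.28 over the members, against -0.03 over all genes, and lay between -0.81 (Birc6) and 0.10 (Herc1). None of the 10 was 2-fold higher (4.55% of all genes) or 2-fold lower (10.9%). Without total RNA library 15 Birc6 was at -1.23, and without library 20 at -0.18. Against pooled total RNA, the counting interval of the IMP2 ratio lay below 1-fold for Dync1h1 (0.751 to 0.897) and Ahnak (0.781 to 0.968). It also did for Huwe1 (0.643 to 0.974) and Birc6 (0.317 to 0.806), and it included 1 for the other members. These intervals cover counting error only, with 1 IMP2 library. The IgG library was the highest of the 4 for 9 of the 10 members, all but Birc6, against 27.9% of all genes. The IMP2 library was the lowest for 8, all but Plec and Herc1, against 24.2%. Both counts share libraries with the choice of members.

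**Figure D2:**
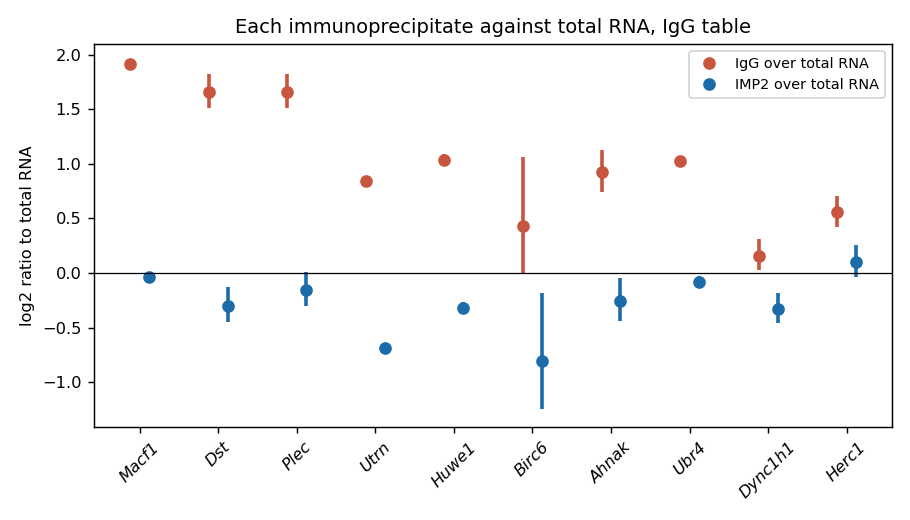
Log2 ratio of the IgG and the IMP2 immunoprecipitate to total RNA for each giant mRNA in the IgG table. Points use the mean of the 2 total RNA libraries and lines run between the ratios to each of them. IgG points reach from 0.16 to 1.92 and IMP2 points from -0.81 to 0.10, and the lines are longest for Birc6.

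Other very long coding mRNAs of the same table were described in the same way. A list of 63 was drawn up from general knowledge after the tables had been seen, and 40 were measured. Their median log2 ratio of IgG over IMP2 was 1.41, with 35 of 40 above 0 and 27 at 1 or more, again against 11.4% of all genes. Against total RNA their median was 0.99 for IgG and -0.18 for IMP2. The medians of the members and of this list lay close together, and the difference between them was not tested.

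Of these the ones with the highest summed counts did not all go the same way. Hspg2, the basement membrane proteoglycan perlecan, had 780 and 535 CPM in total RNA, 757 CPM with IMP2 and 603 CPM with IgG, a log2 ratio of IgG over IMP2 of -0.33. Golgb1, the Golgi tether giantin, had 114 CPM in total RNA library 20, 93.5 CPM with IMP2 and 254 CPM with IgG (log2 1.44). Usp34, a deubiquitinase, was at log2 0.68, and Ttn, the giant muscle protein titin, was at 2.12. The highest ratios of the list belonged to the histone methyltransferase Mll1 (2.36) and to Vps13d (2.35), a lipid transfer protein, and the lowest to Nbea (-0.79) and Ank2 (-0.69).

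The pathways of the members were described by the same ratio without the members, which were themselves chosen on it, and differences between lists were not tested. Over all genes 11.4% were at a log2 ratio of 1 or more and 5.57% at -1 or less. Of 33 partners and relatives of the linkers 19 were measured, with a median log2 ratio of IgG over IMP2 of 0.15 and 4 at 1 or more. The 2 highest were the nuclear envelope linkers Syne2 (2.17) and Syne1 (1.87), themselves very long, and the 2 lowest were the actin crosslinkers Actn4 (-0.54) and Flnc (-0.48). S100a10 and Anxa2, which bind the Ahnak protein, were at -0.15 and -0.45. Of 29 other HECT and giant ubiquitin ligases 24 were measured, with a median of 0.47, 21 above 0 and 7 at 1 or more. Mycbp2 (1.60) and Hectd4 (1.59) were highest, and Ube3b (-0.57) and Wwp2 (-0.10) lowest. Mycbp2, Hectd4, Herc2, Syne1, Syne2 and Eppk1 also belong to the list of very long mRNAs.

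Of 29 dynein and dynactin genes 23 were measured, with a median log2 ratio of -0.04, 1 at 1 or more and 2 at -1 or less. Dctn6, a small dynactin subunit, was highest (1.56, from 1.57 CPM with IMP2), followed by the dynein adaptor Bicd2 (0.94). The actin-capping subunit Capza1 (-1.53) and the dynein regulator Ndel1 (-1.10) were lowest. Dync1h1 at 0.49 lay above the median of this list, but the members were chosen on this ratio, so nothing is read from that.

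**Figure D3:**
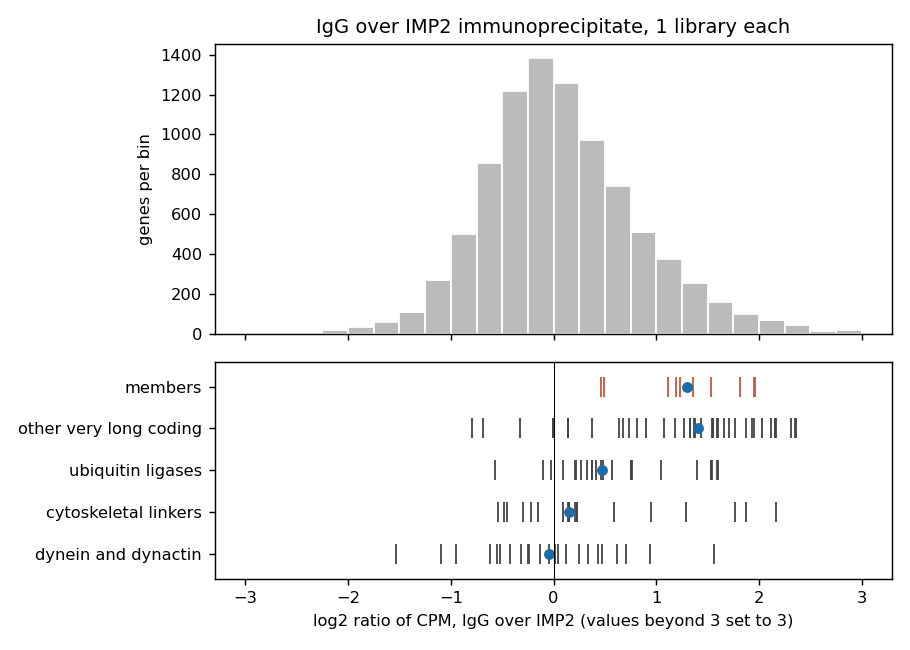
Upper panel: number of genes per bin of the log2 ratio of CPM, IgG over IMP2, for the 8966 genes of the IgG table. Lower panel: the same ratio for each gene of 5 lists, with a dot at the median. The medians are 1.30 for the members, 1.41 for other very long coding mRNAs, 0.47 for ubiquitin ligases, 0.15 for cytoskeletal linkers and -0.04 for dynein and dynactin.

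Markers of other cell types and nuclear noncoding RNAs were summed in the same libraries. Of the nuclear noncoding RNAs, Malat1, Meg3 and Neat1 were listed and Kcnq1ot1 was not, and all 3 were higher with IgG than with IMP2, at log2 1.87, 1.29 and 0.55. Their median of 1.29 lay beside the 1.30 of the members, and their summed level was 3630 and 2070 CPM in total RNA, 1950 CPM with IMP2 and 3290 CPM with IgG. Their median was 0.31 for IgG and -0.66 for IMP2 against total RNA. The summed level of 16 skeletal muscle markers was 18400 and 10000 CPM in total RNA, 9740 CPM with IMP2 and 7110 CPM with IgG. That of 9 listed endothelial markers was 667 and 677, 623 and 719 CPM in the same order. The 6 listed macrophage and leukocyte markers stood at 176 and 143, 151 and 78.6 CPM, with Adgre1, Cd68, Ptprc and Cd14 not listed, and 3 listed nerve markers at 259 and 271, 166 and 230 CPM. The part of these cells or of nuclear RNA in the members' values was not tested. In bulk tissue fewer cells of a type and less RNA per cell cannot be told apart.

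The knockout table holds libraries that the choice of members did not use, and there Macf1, Ahnak, Ubr4 and Dync1h1 could be tested. Recovery with the IMP2 antibody from WT tissue was compared with WT total RNA to ask whether the antibody draws these mRNAs down. None of the 4 passed an adjusted p of 0.05 in the quasi-likelihood test of edgeR, while 22.4% of all 1189 genes did, 9.92% higher and 12.4% lower. One of the 4, Ahnak, had an unadjusted p under 0.05, against 38.3% of genes, and DESeq2 called Ahnak among 395 of the 1189 genes, so neither count stands above the background.

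Macf1 had 197 and 181 CPM in WT total RNA and 270 and 195 CPM in the WT immunoprecipitates, and the groups overlapped, where 32.2% of genes were higher in both. Its difference was log2 0.31 ± 0.17 (SE, n = 2 per group, edgeR adjusted p = 0.207). Ahnak had 732 and 767 CPM in WT total RNA and 659 and 504 CPM in the immunoprecipitates, lower in both, as were 33.8% of all genes. Its difference was log2 -0.36 ± 0.14 (edgeR adjusted p = 0.0896). With DESeq2 the adjusted p was 0.0485, and without immunoprecipitate 21 edgeR gave log2 -0.58 (adjusted p = 0.0309), but without immunoprecipitate 22 it gave -0.19 (adjusted p = 0.333). Ubr4 had 260 and 292 CPM in total RNA and 264 and 323 CPM in the immunoprecipitates, which overlapped (log2 0.09 ± 0.16, adjusted p = 0.725). Dync1h1 had 510 and 733 CPM in total RNA, its widest spread, against 445 and 591 CPM in the immunoprecipitates (log2 -0.26 ± 0.22, adjusted p = 0.405).

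The KO immunoprecipitates show recovery by the antibody in tissue labelled as lacking IMP2. None of the 4 members passed the threshold against KO total RNA with edgeR or DESeq2, against 26.3% of genes with edgeR (10.6% higher and 15.7% lower), and none had an unadjusted p under 0.05. Macf1 had 190 and 207 CPM in KO total RNA and 269 and 240 CPM in the KO immunoprecipitates, higher in both, as were 32.6% of genes (log2 0.36 ± 0.16, adjusted p = 0.126). Ubr4 had 248 and 245 CPM in total RNA and 336 and 268 CPM in the immunoprecipitates (log2 0.29 ± 0.16, adjusted p = 0.197). Scaling by the upper quartile, a shift of log2 0.17 for the median gene, gave Ubr4 log2 0.46 and an adjusted p of 0.048, in a fit that called 33.9% of genes. Ahnak was lower in both, as were 33.9% of genes (log2 -0.19 ± 0.14, adjusted p = 0.32), and Dync1h1 overlapped (log2 -0.22 ± 0.22, adjusted p = 0.48).

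Recovery that depends on IMP2 is the WT ratio of immunoprecipitate to total RNA divided by the KO ratio. None of the 4 members, and none of the 1189 genes (0.0%), passed with edgeR or DESeq2. All 4 members lay a little below 0, with Ubr4 at log2 -0.21 ± 0.23, Ahnak at -0.17 ± 0.19, Macf1 at -0.05 ± 0.23 and Dync1h1 at -0.04 ± 0.31 (n = 2 per group, all edgeR adjusted p = 0.999). Each value lies within its standard error of 0, and the sign changed for Macf1, Ahnak and Dync1h1 when single libraries were left out. None of the 4 had an unadjusted p under 0.05, against 2.44% of genes.

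**Figure D4:**
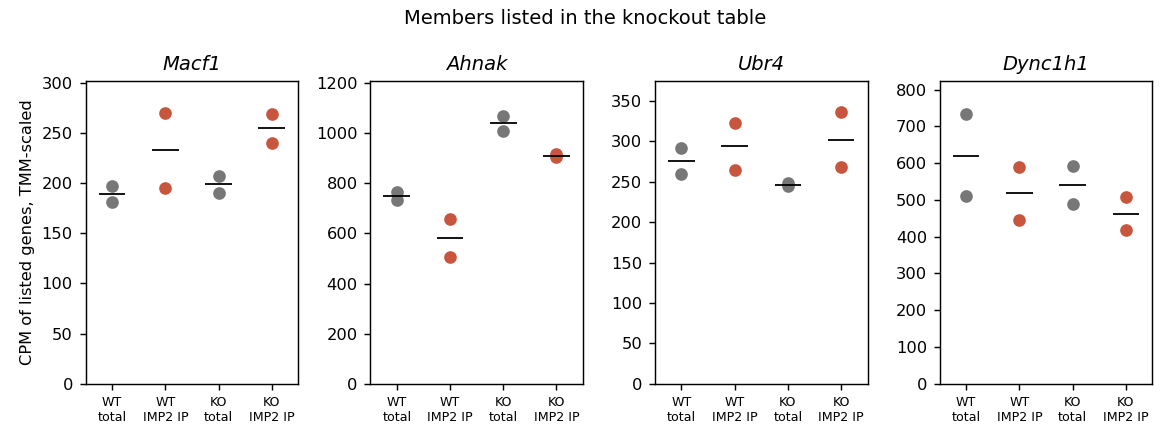
TMM-scaled CPM of the 4 giant mRNAs of the knockout table in total RNA and IMP2 immunoprecipitates (IP) of wild-type (WT) and knockout (KO) mice. Points are libraries and bars are means of 2. Ahnak is at 732 and 767 CPM in WT total RNA against 1010 and 1070 CPM in KO total RNA, and no other member separates the genotypes as widely.

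Ahnak was the member whose level differed most between genotypes. KO total RNA had 1010 and 1070 CPM and WT total RNA 732 and 767 CPM, a difference of log2 0.47 ± 0.14 (SE, n = 2 per group, edgeR adjusted p = 0.288), and 21.4% of genes were likewise higher in both KO libraries. In the immunoprecipitates the WT libraries had 659 and 504 CPM and the KO libraries 915 and 905 CPM, so Ahnak was lower in both WT libraries, as were 24.3% of genes. The unadjusted p of Ahnak was 0.00767 in total RNA and 0.00136 in the immunoprecipitates. With edgeR none of the 4 members and none of the 1189 genes (0.0%) passed in either comparison, where 11.1% and 17.7% of genes had an unadjusted p under 0.05. DESeq2 called Ahnak in both, with an adjusted p of 0.0232 in total RNA and 0.000855 in the immunoprecipitates, among 35 and 93 genes. The labels do not say whether total RNA and immunoprecipitates came from the same animals, so these comparisons may not be independent.

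Skeletal muscle markers varied widely among these libraries. The summed level of the 8 skeletal muscle markers listed was 2700 and 10500 CPM in WT total RNA against 596 and 2470 CPM in KO total RNA. In the immunoprecipitates it was 1540 and 7250 CPM in WT and 363 and 1380 CPM in KO. Libraries of 1 genotype differed about as widely as that, and none of the 8 markers passed between the genotypes with edgeR (adjusted p of 0.367 to 0.565 in total RNA and 0.191 to 0.34 in the immunoprecipitates). The part of muscle in the Ahnak values was not tested.

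Between genotypes Macf1, Ubr4 and Dync1h1 had smaller values. In KO against WT total RNA they were at log2 0.07 ± 0.16, -0.16 ± 0.16 and -0.20 ± 0.22, and in WT against KO immunoprecipitates at -0.12 ± 0.16, -0.04 ± 0.16 and 0.16 ± 0.22 (adjusted p of 0.71 to 0.905). Ubr4 was lower in both KO total RNA libraries than in either WT library, as were 21.7% of genes, and Macf1 and Dync1h1 overlapped.

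Counts relative to Dync1h1 in the same library need no scaling, but they differed between the tables for the same group. For Ahnak, WT total RNA was at 0.686 and 0.636 in the IgG table and at 1.44 and 1.05 in the knockout table. For Ubr4 it was at 0.311 and 0.356 against 0.510 and 0.399. Values are therefore compared within a table. Macf1 had 0.781 counts per count of Dync1h1 in the IgG library and 0.208 to 0.281 in the other 3 libraries of its table. In the knockout table WT immunoprecipitate 21 (0.606) and the KO immunoprecipitates 24 (0.576) and 23 (0.531) were highest. Total RNA lay between 0.247 and 0.425 there. For Ubr4 the IgG library (0.605) lay above the other 3 libraries of its table (0.311 to 0.394). The knockout table ran from 0.399 to 0.662, with the KO immunoprecipitates highest (0.662 and 0.643). For Ahnak the IgG library (1.12) lay above the other 3 libraries of its table (0.636 to 0.695). In the knockout table the WT libraries ran from 0.852 to 1.48 and the 4 KO libraries from 1.70 to 2.19. Within the IgG table the IMP2 library lay above both total RNA libraries in all 3. It was at 0.281 for Macf1 (0.208 and 0.259 in total RNA), 0.695 for Ahnak (0.686 and 0.636) and 0.394 for Ubr4 (0.311 and 0.356). By CPM it lay below both total RNA libraries for these genes and for Dync1h1.

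**Figure D5:**
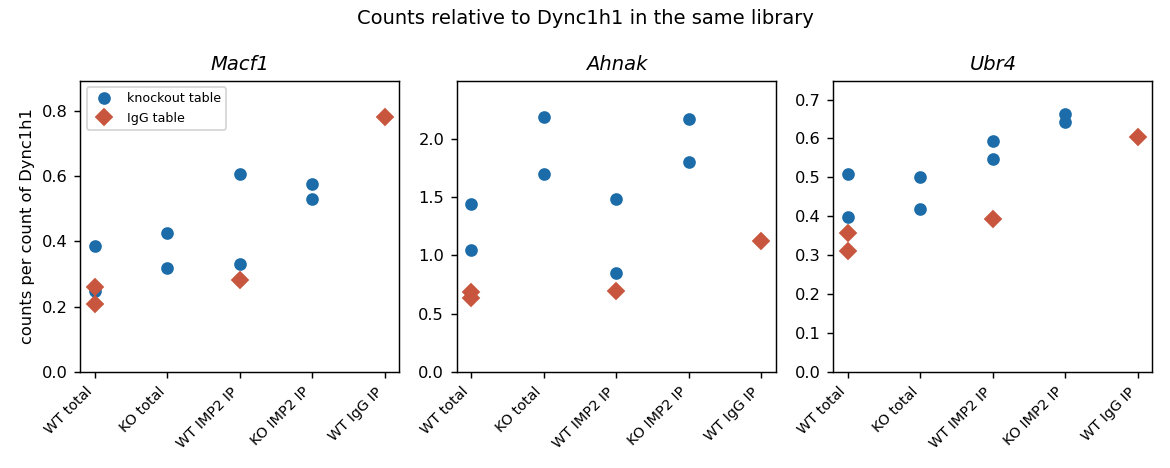
Counts of Macf1, Ahnak and Ubr4 per count of Dync1h1 in each of the 12 libraries, by group; circles are libraries of the knockout table and diamonds those of the IgG table. The IgG library has the highest value of the IgG table for Macf1 (0.781), Ahnak (1.12) and Ubr4 (0.605). For Ahnak and Ubr4, WT total RNA lies lower in the IgG table than in the knockout table, so values are compared within a table.

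The 4 members did not vary together over the 8 libraries of the knockout table. Pearson's r of their log2 CPM ran from -0.74 (Macf1 with Dync1h1) to 0.29 (Ubr4 with Dync1h1), as a description of libraries that share a table. The genes most like the mean of the 4 over these 8 libraries were Grn (r = 0.865), Gsn (0.860), Gramd1a (0.820), Chid1 (0.800) and Tmem50a (0.791). They are the highest out of 1181 genes compared. With members that did not vary together the mean stands for no shared pattern, and the likeness was not tested. Of their pathways few genes are listed in the knockout table. There Dynlrb1, a light chain of dynein, fell in the immunoprecipitates of both genotypes (log2 -0.62 ± 0.15 in WT, adjusted p = 0.0205, and -0.63 ± 0.15 in KO, adjusted p = 0.0154). Of the 6 dynein and dynactin genes listed, 1 was called in WT and 2 in KO, against 22.4% and 26.3% of all genes. The other was the light chain Dynll2 (-0.57, adjusted p = 0.0483 in KO). Kcmf1, a ligase that partners Ubr4, was at -0.71 ± 0.15 in WT (adjusted p = 0.0128) and -0.59 ± 0.15 in KO (adjusted p = 0.0192). It was 1 of the 2 ligases listed besides the members, and the other, Trip12, was not called. The linker partners Actn4, Anxa2 and S100a10 were not called in either genotype.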

How the data were processed

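The deposited tables hold whole-number counts, 1 row per RefSeq transcript, with no scaling applied. The submitters' processing notes name TopHat2 2.0.8, Cufflinks 2.1.1 and build mm10; the counting tool, its handling of shared reads and strand, and the rule for listing transcripts are unstated there and in the labels. Transcripts without a symbol (117 of 1579 and 835 of 12840) were named by accession from a RefSeq table for GRCm38.p6, and the 3 and 22 left unnamed (8.65 to 29.2% and 7.39 to 15.8% of counts) were set aside. Counts were scaled by TMM and tested with edgeR 4.0.16 in R 4.3.3 (quasi-likelihood, its low-count filter, Benjamini-Hochberg over all genes, threshold 0.05), unpaired, with 4 and 1 residual degrees of freedom; DESeq2 1.42.0 was an alternative. In simulated data for WT immunoprecipitate against total RNA (1189 genes), a rise of log2 1 was called for 92% and one of log2 0.5 for 18% of changed genes. The simulation gave every gene the same spread, which the real genes do not have, so these rates are not those of any one member. Members, lists and the naming rule (all members, the 5 highest other long mRNAs, up to 2 genes at each end of a list, the 5 most alike over 8 libraries) were chosen with earlier results of these data known. Classes by protein length were planned but not used here, and a list from general knowledge stood in. Some genes that the naming rule selects are not reported here.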

Additional observations from a re-analysis of the deposited data

How the results depend on the processing

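With edgeR no giant mRNA was called in any of the 5 comparisons of the knockout table, and other settings added at most 1. DESeq2 called 1 (Ahnak) in WT immunoprecipitate against total RNA, in WT against KO immunoprecipitates and in KO against WT total RNA, among 395, 93 and 35 of 1189 genes, and upper-quartile scaling called 1 (Ubr4) in KO immunoprecipitate against total RNA, where it called 33.9% of genes. Leaving out each library gave 0 to 1 in WT immunoprecipitate against total RNA and 0 elsewhere. Values near 0 changed sign when single libraries were left out. In WT immunoprecipitate against total RNA, Ubr4 ranged from log2 -0.06 to 0.22 and Dync1h1 from -0.50 to 0.02. In WT against KO immunoprecipitates, Macf1 ranged from -0.41 to 0.08, Ubr4 from -0.21 to 0.09 and Dync1h1 from -0.05 to 0.33. Dync1h1 ranged from -0.44 to 0.08 in KO against WT total RNA. In IMP2-dependent recovery, Macf1 ranged from -0.33 to 0.15, Ahnak from -0.40 to 0.01 and Dync1h1 from -0.28 to 0.24. The median log2 ratio of IgG over IMP2 stayed between 1.27 and 1.48 over 3 other scalings, no filter and summed transcripts, and was 0.87 for the 9 others relative to Dync1h1, a scale chosen after seeing the data that subtracts the excess of Dync1h1 itself. The limit by protein length was not run. No paired analysis was possible because the labels give the groups no shared replicate numbers. The single IgG library limits every statement on IgG, and low counts widen the intervals of Utrn, Plec, Birc6 and Herc1.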

Other observations

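Muscle messages in the brown fat pieces split by kind in the IgG table, a grouping chosen after the values were seen. The 3 very long ones had log2 ratios of IgG over IMP2 of 2.12 (Ttn, titin), 2.03 (Neb, nebulin) and 1.08 (Ryr1, the calcium release channel). Of these, Ttn also belongs to the list of other very long coding mRNAs above. The other 13 muscle markers had a median of -0.59, and 11 of them were below 0, such as Ckm (-0.64), the muscle creatine kinase, and Tnni2 (-0.99), a troponin. The 2 above 0 were the myosin heavy chains Myh1 (0.83) and Myh4 (0.53). Neb had 98.5 and 39.4 CPM in total RNA, 6.29 CPM with IMP2 and 25.6 CPM with IgG, so it lay below total RNA in both immunoprecipitates. Ttn had 267 and 139 CPM in total RNA, 88.8 CPM with IMP2 and 386 CPM with IgG. Against total RNA the IMP2 library was at log2 -1.19 in the median of the 3, while the other 13 muscle markers had a median of -0.67, with 10 of 13 below 0, and the giant mRNAs described above one of -0.28. These are values of 1 library per immunoprecipitate, and no test was made.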
